A study of Mus musculus with 6 samples.

Results

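Genes of the cell cycle and of DNA replication were followed in RNA from mouse livers 24 h after an overdose of acetaminophen (APAP), a drug whose toxic metabolite injures hepatocytes. The set held 46 genes, chosen by symbol from the 28476 genes of the expression table. It had 13 genes of the G1 phase and its exit, 19 genes of DNA replication and 14 genes of mitosis and its control. All mice were C57BL/6, were fasted overnight and received 300 mg/kg APAP by intraperitoneal injection. The Nedd4 HepKO group (HepKO below) was compared with the Flox group, with 3 libraries each. The label HepKO was not spelled out, and the Cre driver, age and sex of the mice are not given in the sources used here. Labels do not tie each library to its own animal, and the p-values therefore reflect differences among libraries that may be technical. Below, values of HepKO or Flox livers are values of these libraries, not of animals known to be separate. Livers without APAP were not analysed here, so every difference is between treated genotypes.

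A cell leaves quiescence through G1, when D-type cyclins activate CDK4 and CDK6, which phosphorylate the retinoblastoma protein and release E2F transcription factors. E2F targets load the MCM helicase onto replication origins, supply deoxynucleotides and copy the DNA. A later wave of genes, many read through CHR and CCAAT promoter elements, drives entry into mitosis, spindle assembly and division. In liver, hepatocytes are mostly quiescent and re-enter this cycle after tissue loss, which is part of recovery from APAP injury.

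The targeted gene was measured first. Nedd4, which encodes a HECT-type ubiquitin ligase (ENSMUSG00000032216, chr9:72662346-72749852), had 0.618, 0.666 and 0.565 FPKM in HepKO livers, against 2.18, 2.59 and 2.23 FPKM in Flox livers. FPKM is a fragment number scaled to transcript length and library size, a level per length. All HepKO values lay below all Flox values (log2 fold change -1.04, SE 0.10, limma adjusted p = 0.0015). The library totals ran from 456176 to 496303 FPKM and sequencing depth is unknown. HepKO replicate 1 had 24.6% of its FPKM in mitochondrial transcripts, against 16.7% to 18.3% in the other 5 libraries. All 8 hepatocyte markers averaged at least 117 FPKM, led by Alb.

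The 3 phase groups stood at different levels. The G1 genes averaged between 0.577 FPKM (Ccne2, an E-type cyclin of S phase entry) and 13.6 FPKM (Cdk4, the kinase partner of D-type cyclins). The replication genes spanned 0.0536 FPKM (Cdc6, a loader of the MCM helicase) to 23.6 FPKM (Pcna, the sliding clamp of DNA polymerases). Every mitotic gene averaged below 0.5 FPKM, the highest being Ccnb2, a B-type cyclin, at 0.418 FPKM. Summed over its 14 genes, the mitotic group came to 0.786, 1.57 and 1.31 FPKM in HepKO livers and to 1.58, 1.60 and 2.03 FPKM in Flox livers. The G1 group summed to 32.9, 36.9 and 35.2 FPKM in HepKO livers and to 35.9, 39.0 and 40.0 FPKM in Flox livers. The replication group summed to 45.5, 54.1 and 60.5 FPKM in HepKO livers and to 51.2, 49.8 and 55.4 FPKM in Flox livers. Only for the mitotic group did the 2 genotypes not overlap, by the margin between HepKO replicate 2 (1.57 FPKM) and Flox replicate 1 (1.58 FPKM). Dividing by their median-ratio factors, 0.977 and 1.00, puts HepKO replicate 2 above Flox replicate 1, so this separation depends on scaling. In whole liver, fewer cells of a type and less RNA per cell cannot be told apart.

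**Figure D1:**
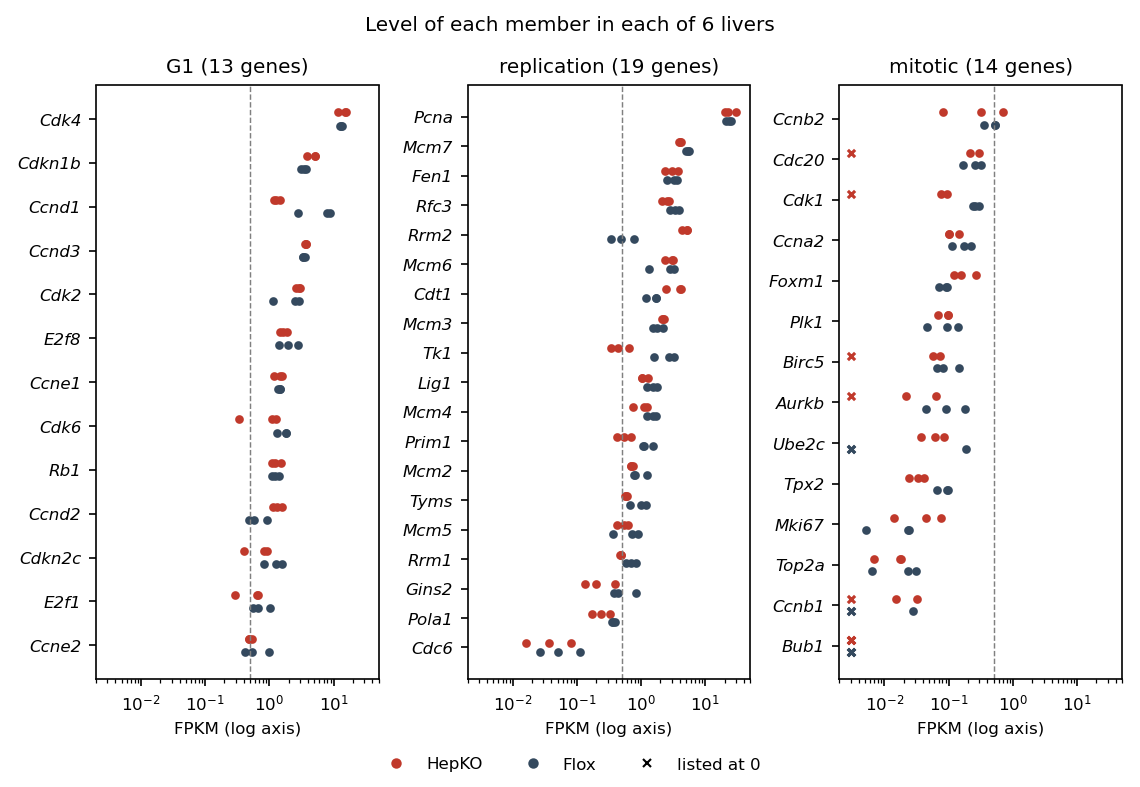
FPKM of each of the 46 members in each library on a log axis, HepKO in red above Flox in dark blue; crosses mark values listed at 0 and the dashed line marks 0.5 FPKM. Every mitotic gene averaged below the line, while Pcna and Cdk4 averaged above 10 FPKM.

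Promoter sequence was not used to choose the genes. RefSeq promoter windows of 300 bases on GRCm38.p6, from 250 bases before to 50 after the annotated start, were matched for 36 of the 46 members and searched on both strands. The E2F letters were TTTCCCGC, TTTCGCGC, TTTGCCGC and TTTGGCGC, the CHR letters were TTTGAA and TTCGAA, and the CCAAT box was CCAAT. Matches of different motifs shared bases in 1 of the 42 members' windows. An E2F match was found for 9 of 17 replication genes (52.9%), 1 of 9 G1 genes (11.1%) and 1 of 10 mitotic genes, against 2.61% of 27025 genes with a window. A CHR match was found for 8 of 10 mitotic genes, 4 of 17 replication genes (23.5%) and 1 of 9 G1 genes, against 21.7% of all genes. A CCAAT match was found for 9 of 10 mitotic, 11 of 17 replication and 5 of 9 G1 genes, against 41.1% of all genes. These shares describe letters in a window and were not tested.

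**Figure D2:**
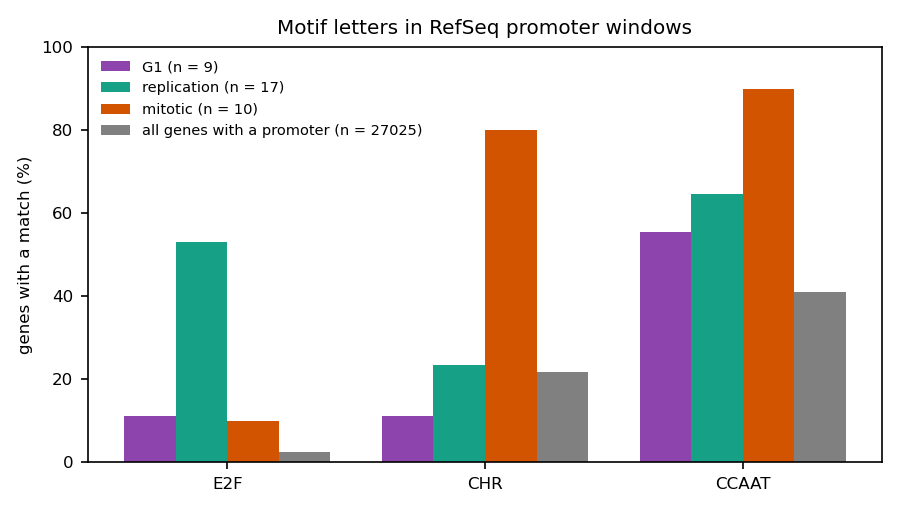
Share of genes in percent whose RefSeq promoter window holds E2F, CHR or CCAAT letters, for the 3 groups of members and for all genes with a window. Replication genes held E2F letters in 52.9% of cases, against 2.61% of all genes, and mitotic genes held CHR letters in 8 of 10 cases.

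The windows of the 4 replication genes whose level passed the test between genotypes are shown with those of 2 mitotic genes that stayed near 0, because their motifs differ. Capitals mark matches to the E2F, CHR or CCAAT letters on either strand, and each sequence reads 5′ to 3′ on the strand of its gene. They are Rrm2 (chr12:24708004-24708303, plus strand), Cdt1 (chr8:122567765-122568064, plus strand), Tk1 (chr11:117825965-117826264, minus strand), Prim1 (chr10:128014965-128015264, plus strand), Cdk1 (chr10:69352863-69353162, minus strand) and Ccnb2 (chr9:70421505-70421804, minus strand), all on GRCm38.p6. Gene coordinates elsewhere are those of GRCm38.
Rrm2: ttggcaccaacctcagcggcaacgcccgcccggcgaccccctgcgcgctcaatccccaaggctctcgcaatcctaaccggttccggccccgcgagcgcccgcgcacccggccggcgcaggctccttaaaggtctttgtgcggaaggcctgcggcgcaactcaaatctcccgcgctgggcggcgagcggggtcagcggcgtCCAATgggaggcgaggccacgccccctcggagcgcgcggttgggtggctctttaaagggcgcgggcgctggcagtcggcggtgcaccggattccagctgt
Cdt1: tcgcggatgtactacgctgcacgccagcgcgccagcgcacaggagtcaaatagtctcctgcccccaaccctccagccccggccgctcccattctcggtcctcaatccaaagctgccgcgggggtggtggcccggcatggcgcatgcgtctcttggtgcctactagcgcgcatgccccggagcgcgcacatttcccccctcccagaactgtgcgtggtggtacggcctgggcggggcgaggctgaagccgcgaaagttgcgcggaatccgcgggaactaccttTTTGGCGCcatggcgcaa
Tk1: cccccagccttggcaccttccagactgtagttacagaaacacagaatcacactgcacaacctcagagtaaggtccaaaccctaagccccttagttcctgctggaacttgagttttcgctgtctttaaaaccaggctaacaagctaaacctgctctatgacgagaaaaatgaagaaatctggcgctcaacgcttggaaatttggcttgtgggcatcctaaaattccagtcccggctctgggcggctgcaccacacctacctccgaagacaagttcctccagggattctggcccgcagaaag
Prim1: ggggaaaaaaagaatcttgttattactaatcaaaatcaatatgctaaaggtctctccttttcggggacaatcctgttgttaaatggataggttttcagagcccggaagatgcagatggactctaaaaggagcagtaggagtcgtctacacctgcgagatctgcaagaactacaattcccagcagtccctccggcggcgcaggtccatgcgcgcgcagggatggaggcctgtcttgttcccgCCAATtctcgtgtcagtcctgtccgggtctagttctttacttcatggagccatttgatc
Cdk1: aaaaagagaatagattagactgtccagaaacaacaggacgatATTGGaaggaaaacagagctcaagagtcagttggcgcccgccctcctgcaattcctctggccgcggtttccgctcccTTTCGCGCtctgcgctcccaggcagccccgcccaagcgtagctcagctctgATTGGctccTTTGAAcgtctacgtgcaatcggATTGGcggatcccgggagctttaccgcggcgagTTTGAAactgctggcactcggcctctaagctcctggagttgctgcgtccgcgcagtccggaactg
Ccnb2: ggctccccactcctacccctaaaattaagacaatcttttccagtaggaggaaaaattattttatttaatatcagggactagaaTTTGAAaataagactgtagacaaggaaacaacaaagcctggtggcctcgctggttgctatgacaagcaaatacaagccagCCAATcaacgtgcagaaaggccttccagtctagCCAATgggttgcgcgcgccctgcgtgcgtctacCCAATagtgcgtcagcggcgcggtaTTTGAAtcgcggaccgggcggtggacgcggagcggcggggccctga
Cdt1 held 1 E2F match and neither of the other motifs, Rrm2 and Prim1 held 1 CCAAT match each and no other, and Tk1 held no match. Cdk1 held 1 E2F, 2 CHR and 3 CCAAT matches, and Ccnb2 held 2 CHR and 3 CCAAT matches. By these letters, neither the 2 genes that were higher nor the 2 that were lower in HepKO livers, described below, shared a motif pattern. Rrm2, which was higher, and Prim1, which was lower, had the same one. This describes 2 genes in each direction, and the part of promoter motifs in the differences was not tested.

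Of the 46 members, 29 averaged at least 0.5 FPKM and were tested with limma on log2(FPKM + 1); 3 were higher in HepKO livers, 3 were lower and 23 did not pass at an adjusted p of 0.05. Over all 12712 genes tested, 20.3% passed, 9.33% higher and 11.0% lower in HepKO livers, so 6 of 29 members (20.7%) is close to that share. The balance of all genes depended on scaling, with 1377 higher and 1263 lower in HepKO livers after median-ratio rescaling, against 1186 higher and 1397 lower as deposited. The tested members had a median log2 fold change of -0.12, against -0.06 for all genes tested. The 13 G1 genes had 1 higher and 1 lower with a median of -0.03, and the 16 tested replication genes had 2 higher and 2 lower with a median of -0.18. None of the 14 mitotic genes reached the level needed for the test. Values of the 2 genotypes did not overlap for 15 of the 29 tested members, 5 higher and 10 lower in HepKO livers, against 42.4% of all tested genes, 17.2% higher and 25.2% lower. In the authors' deposited table, 6 of the 32 members with a p-value below 1 (18.8%) had a q-value of at most 0.05, all 6 of them among those called here, against 18.5% of the 13783 genes with a deposited p-value below 1.

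**Figure D3:**
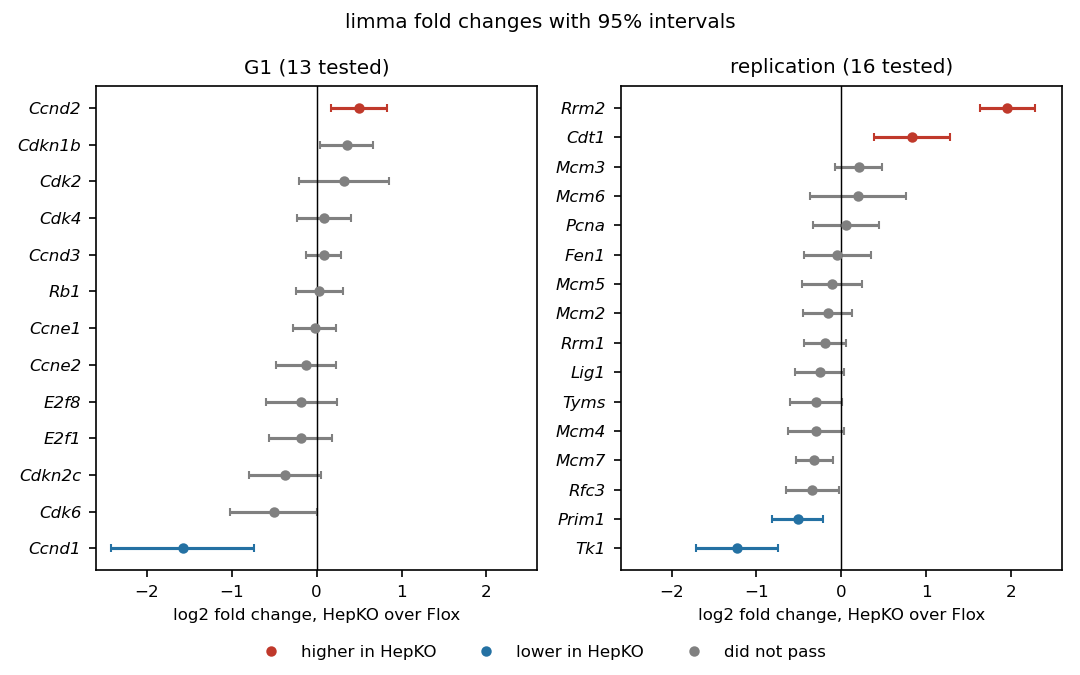
limma log2 fold changes of HepKO over Flox with 95% intervals for the 13 G1 and 16 replication genes tested, ordered by value; red genes were higher and blue genes lower in HepKO livers at an adjusted p of 0.05. Rrm2 at 1.96 and Ccnd1 at -1.58 lie farthest from 0, and most intervals include 0.

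Among the G1 genes, the D-type cyclins went separate ways. Ccnd1, the cyclin that growth signals induce in regenerating liver (ENSMUSG00000070348, chr7:144929931-144939925), had 1.46, 1.29 and 1.19 FPKM in HepKO livers, against 2.74, 7.89 and 8.89 FPKM in Flox livers. The HepKO values were tightly grouped and all below the Flox values, of which replicate 1 was the lowest by far. Mean Ccnd1 fell to 1.32 ± 0.136 FPKM in HepKO livers, against 6.51 ± 3.30 FPKM in Flox livers (SD, n = 3 each), a 4.95-fold difference (log2 fold change -1.58, SE 0.35, limma adjusted p = 0.025). The call was lost without HepKO replicate 1 (adjusted p = 0.065), 2 (0.075) or 3 (0.062) and without Flox replicate 2 (0.082) or 3 (0.070). It was also lost with no filter on low values (0.067) and with the replicate block (0.051), although the log2 fold change was -1.32 or lower in each of these fits. Ccnd1 shares 1100 exonic bases, 23.4% of its own, with LTO1 on the opposite strand, which averaged 1.18 ± 0.415 FPKM in HepKO and 2.68 ± 0.139 FPKM in Flox livers (log2 fold change -0.77, limma adjusted p = 0.015). The use of strand in counting fragments, not given in the sources used here, decides where such reads went, and their part in the Ccnd1 difference was not tested. Of the 46 members, 18 share exonic bases with a gene on the opposite strand, and for 3 of them (Ccnd1, Tk1 and E2f8) that gene was lower in HepKO livers.

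Ccnd2, another D-type cyclin (ENSMUSG00000000184, chr6:127125162-127152193), moved the other way. It had 1.3, 1.57 and 1.15 FPKM in HepKO livers, against 0.479, 0.929 and 0.576 FPKM in Flox livers. No Flox value reached the lowest HepKO value, and mean Ccnd2 was 2.02-fold higher in HepKO livers (log2 fold change 0.50, SE 0.14, limma adjusted p = 0.048). This call sat at the threshold: it was lost without HepKO replicate 1 (adjusted p = 0.11), 2 (0.14) or 3 (0.061), without Flox replicate 1 (0.11) or 3 (0.13), and in 6 other alternatives. Ccnd3, the third D-type cyclin, had 3.72, 3.63 and 3.72 FPKM in HepKO livers and 3.36, 3.53 and 3.39 FPKM in Flox livers and did not pass (log2 fold change 0.08, 95% interval -0.13 to 0.29). Within each library, Ccnd1 made up 22.6%, 19.9% and 19.7% of D-type cyclin FPKM in HepKO livers, against 41.7%, 63.9% and 69.1% in Flox livers. This share was chosen after its values were seen, and its exact two-sided permutation test gave p = 0.10, the smallest that 3 against 3 allows. Ccnd1 was lower, and Ccnd2 and Ccnd3 higher, in every HepKO library than in any Flox library. The outcome for the share was therefore fixed by its parts and adds no support. The summed level of these cyclins was 6.48, 6.49 and 6.06 FPKM in HepKO livers and 6.59, 12.3 and 12.9 FPKM in Flox livers, so Flox replicate 1 lay close to the HepKO livers.

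The kinases and their brakes did not pass. Cdk4 had 11.5, 15.7 and 15.1 FPKM in HepKO livers and 12.9, 12.7 and 13.7 FPKM in Flox livers, with overlapping values (log2 fold change 0.09, 95% interval -0.23 to 0.41). Its gene shares 641 exonic bases with Tspan31 on the opposite strand, which averaged 138.7 FPKM over the 6 libraries. Cdk6, the other D-type cyclin kinase, had 1.08, 0.343 and 1.28 FPKM in HepKO livers, each below the Flox values of 1.31, 1.81 and 1.81 FPKM (log2 fold change -0.51, limma adjusted p = 0.14). Cdkn1b, which encodes the CDK inhibitor p27, had 5.05, 5.10 and 3.84 FPKM in HepKO livers and 3.41, 3.12 and 3.74 FPKM in Flox livers (log2 fold change 0.35, limma adjusted p = 0.10); it passed without HepKO replicate 3 (adjusted p = 0.044). Cdkn2c, which encodes the CDK4 and CDK6 inhibitor p18, averaged 0.722 FPKM in HepKO and 1.22 FPKM in Flox livers (limma adjusted p = 0.19). Rb1, the retinoblastoma gene, differed by 0.03 on the log2 scale (95% interval -0.24 to 0.31).

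The E2F factors and E-type cyclins overlapped between the genotypes. E2f1, an activating E2F, ranged from 0.289 to 0.670 FPKM in HepKO livers and from 0.548 to 1.03 FPKM in Flox livers. E2f8, an atypical E2F that represses replication genes and favours hepatocyte polyploidy, averaged 1.67 ± 0.209 FPKM in HepKO and 2.07 ± 0.702 FPKM in Flox livers (SD, n = 3 each; limma adjusted p = 0.51). Ccne1 averaged 1.40 FPKM in HepKO and 1.44 FPKM in Flox livers, and Ccne2 0.50 FPKM in HepKO and 0.654 FPKM in Flox livers. Cdk2, their kinase, averaged 2.85 FPKM in HepKO and 2.17 FPKM in Flox livers (log2 fold change 0.33, 95% interval -0.21 to 0.86), with Flox replicate 3 at 1.14 FPKM.

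Among the nucleotide supply genes of replication, 2 moved strongly and in opposite directions. Rrm2, the S phase subunit of ribonucleotide reductase, the enzyme that makes deoxynucleotides (ENSMUSG00000020649, chr12:24708241-24714146), had 4.36, 5.21 and 5.20 FPKM in HepKO livers, against 0.764, 0.341 and 0.490 FPKM in Flox livers. Every HepKO library was far above every Flox library. Mean Rrm2 rose to 4.92 ± 0.487 FPKM in HepKO livers, against 0.531 ± 0.215 FPKM in Flox livers (SD, n = 3 each), a 9.26-fold difference (log2 fold change 1.96, SE 0.14, limma adjusted p = 0.00057). It passed in all 15 alternatives, with adjusted p between 0.00040 and 0.012.

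Rrm1, the large subunit of the same enzyme, did not pass. It had 0.491, 0.462 and 0.492 FPKM in HepKO livers and 0.573, 0.691 and 0.835 FPKM in Flox livers (log2 fold change -0.20, 95% interval -0.44 to 0.05, limma adjusted p = 0.23). The ratio of Rrm2 to Rrm1 FPKM was 8.87, 11.3 and 10.6 in HepKO livers and 1.33, 0.493 and 0.587 in Flox livers. This ratio was chosen after its values were seen, and its exact two-sided permutation test gave p = 0.10, the smallest possible. Rrm2 was higher and Rrm1 lower in every HepKO library than in any Flox library. That outcome was therefore fixed by the parts and adds no support.

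Tk1, the thymidine kinase of the salvage pathway (ENSMUSG00000025574, chr11:117815526-117826092), had 0.335, 0.432 and 0.645 FPKM in HepKO livers, against 1.57, 3.27 and 2.72 FPKM in Flox livers. The lowest Flox library, replicate 1, was still above the highest HepKO library. Mean Tk1 fell to 0.471 ± 0.159 FPKM in HepKO livers, against 2.52 ± 0.869 FPKM in Flox livers (SD, n = 3 each), a 5.35-fold difference (log2 fold change -1.23, SE 0.20, limma adjusted p = 0.0084), and it passed in all 15 alternatives. The HepKO mean lay below the filter of 0.5 FPKM, so Tk1 reached the test through its Flox values. With no filter on low values, its limma adjusted p was 0.030. Its gene overlaps Afmid, with which it shares 83 exonic bases (1.60% of its own), and Gm20708, with which it shares none, both on the opposite strand. Afmid averaged 1.20 FPKM in HepKO and 4.60 FPKM in Flox livers, and Gm20708 5.69 FPKM in HepKO and 17.6 FPKM in Flox livers; both fell (limma adjusted p = 0.0021 and 0.0040), and the part of reads from them in the Tk1 value was not tested. Tyms, thymidylate synthase of the de novo route to the same nucleotide, had 0.581, 0.568 and 0.60 FPKM in HepKO livers and 0.672, 1.00 and 1.19 FPKM in Flox livers and did not pass (log2 fold change -0.30, limma adjusted p = 0.15).

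Origin licensing genes were uneven. Cdt1, which loads the MCM helicase onto origins (ENSMUSG00000006585, chr8:122568015-122573128), had 2.47, 4.09 and 4.18 FPKM in HepKO livers, against 1.73, 1.70 and 1.20 FPKM in Flox livers. The genotypes did not overlap, with HepKO replicate 1 nearest to the Flox livers, and mean Cdt1 was 2.32-fold higher in HepKO livers (log2 fold change 0.83, SE 0.19, limma adjusted p = 0.025). The call was lost without HepKO replicate 2 (adjusted p = 0.084) or 3 (0.062) and without Flox replicate 2 (0.064) or 3 (0.078). It was also lost with no filter on low values (0.065), with no filter and a pseudocount of 0.1 (0.053) and with the replicate block (0.063). Cdc6, its partner in loading, ranged from 0.0159 to 0.0808 FPKM in HepKO livers and from 0.0268 to 0.110 FPKM in Flox livers, too low for the test.

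The 6 subunits of the MCM helicase gave no call. Summed over Mcm2 to Mcm7, their level was 10.8, 11.6 and 11.8 FPKM in HepKO livers and 11.0, 12.4 and 14.5 FPKM in Flox livers. Their log2 fold changes ran from -0.32 to 0.20, with 2 positive and 4 negative. Values of 3 subunits, Mcm2, Mcm4 and Mcm7, did not overlap, all lower in HepKO livers. Over all tested genes 25.2% did so in that direction, and 6 genes are too few to read against that share. Mcm4 averaged 1.03 FPKM in HepKO and 1.49 FPKM in Flox livers (limma adjusted p = 0.17). Mcm2 averaged 0.717 FPKM in HepKO and 0.931 FPKM in Flox livers (limma adjusted p = 0.39). Mcm7 came closest to a call, with 3.89, 4.06 and 4.17 FPKM in HepKO livers, each below the Flox values of 5.56, 5.03 and 5.29 FPKM (log2 fold change -0.32, limma adjusted p = 0.053). It passed when the test was limited to genes averaging 1 FPKM or more (adjusted p = 0.048), and it shares 321 exonic bases with Ap4m1 on the opposite strand. Mcm3 had the largest positive value, at 2.23 FPKM in HepKO and 1.81 FPKM in Flox livers (log2 fold change 0.20, limma adjusted p = 0.25), and Mcm6 was 2.86 FPKM in HepKO and 2.47 FPKM in Flox livers. Mcm5 averaged 0.534 FPKM in HepKO and 0.666 FPKM in Flox livers, with overlapping values (limma adjusted p = 0.64). Gins2, a subunit of the active helicase, was below the level for testing at 0.243 FPKM in HepKO and 0.554 FPKM in Flox livers, and 67.3% of its exonic bases are shared with Gse1 on the opposite strand.

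Of the genes that copy and join DNA, 1 was lower in HepKO livers. Prim1, the catalytic subunit of primase, which lays down RNA primers (ENSMUSG00000025395, chr10:128015168-128030037), had 0.427, 0.548 and 0.689 FPKM in HepKO livers, against 1.07, 1.10 and 1.51 FPKM in Flox livers. The genotypes did not overlap, and mean Prim1 was 2.21-fold lower in HepKO livers (log2 fold change -0.51, SE 0.13, limma adjusted p = 0.033). The call was lost without HepKO replicate 1 (adjusted p = 0.092) or 2 (0.092) and without Flox replicate 2 (0.073) or 3 (0.092). It was also lost with no filter on low values (0.082), with no filter and a pseudocount of 0.1 (0.077) and with the replicate block (0.051). Pola1, the catalytic subunit of DNA polymerase alpha, which works with primase, had 0.173, 0.329 and 0.237 FPKM in HepKO livers and 0.368, 0.355 and 0.391 FPKM in Flox livers and was too low for the test. Pcna had 19.9, 22.8 and 29.9 FPKM in HepKO livers and 24.9, 20.7 and 23.3 FPKM in Flox livers, with overlapping values (log2 fold change 0.06, 95% interval -0.33 to 0.45). Rfc3, a subunit of the clamp loader, averaged 2.46 FPKM in HepKO and 3.39 FPKM in Flox livers (limma adjusted p = 0.12), Lig1, which joins Okazaki fragments, 1.11 FPKM in HepKO and 1.53 FPKM in Flox livers (limma adjusted p = 0.18), and the flap nuclease Fen1 3.01 FPKM in HepKO and 3.14 FPKM in Flox livers (limma adjusted p = 0.86).

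**Figure D4:**
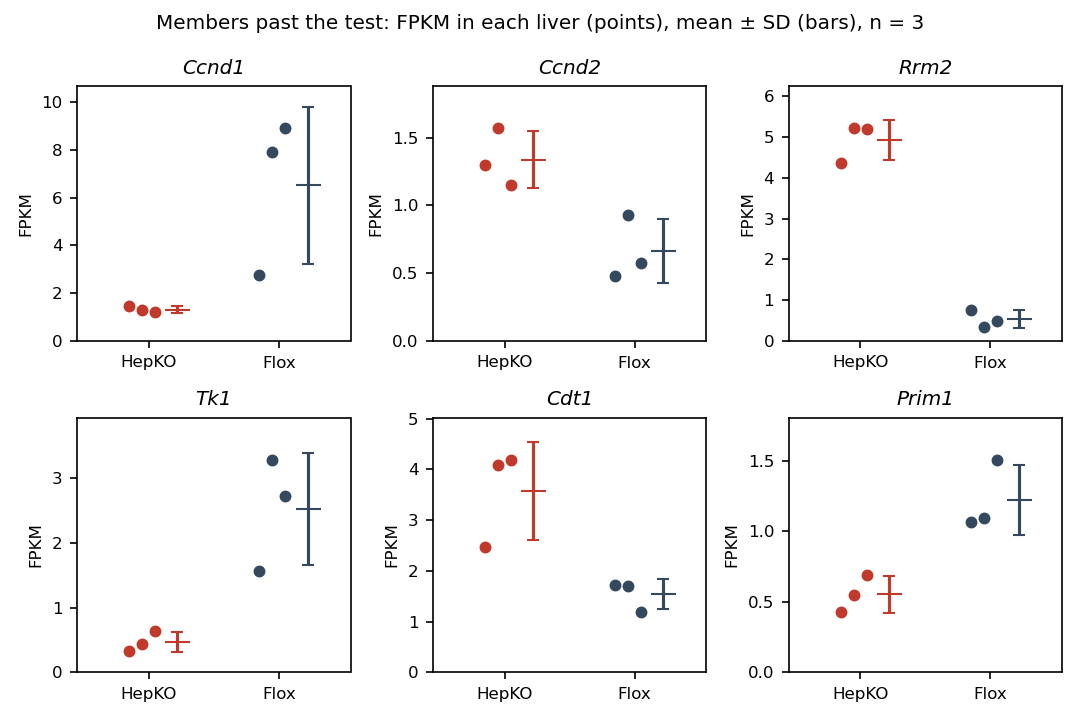
FPKM of the 6 members past the test in each library (points, left to right replicates 1 to 3), HepKO left of Flox, with the mean and SD beside them (n = 3 each); each vertical axis starts at 0. In every panel the genotypes do not overlap, Rrm2 standing at 4.36 to 5.21 FPKM in HepKO livers, against 0.341 to 0.764 FPKM in Flox livers.

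Mitotic transcripts were near 0 in both genotypes. Of the 84 values of the 14 genes in the 6 libraries, 15 were listed at 0, and the highest single value was 0.695 FPKM, for Ccnb2 in HepKO replicate 2. Bub1, a spindle checkpoint kinase, was listed at 0 in every library. Mki67, the proliferation marker, had 0.0756, 0.0449 and 0.0143 FPKM in HepKO livers and 0.0232, 0.00521 and 0.0246 FPKM in Flox livers. Top2a, the topoisomerase that untangles chromosomes, ranged from 0.00690 to 0.0181 FPKM in HepKO livers and from 0.00645 to 0.0308 FPKM in Flox livers. Both overlapped between the genotypes.

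Cdk1, the kinase that triggers mitosis, had the lowest adjusted p of the 14 genes when no filter was applied. It had 0.0950, 0 and 0.0773 FPKM in HepKO livers, against 0.259, 0.242 and 0.293 FPKM in Flox livers. With no filter on low values it passed (log2 fold change -0.26, limma adjusted p = 0.032), but not with a pseudocount of 0.1 as well (log2 fold change -1.27, limma adjusted p = 0.078), an alternative chosen after seeing the data. The authors' deposited table gives it a q-value of 0.060. Its cyclin partners overlapped: Ccna2 ranged from 0.10 to 0.145 FPKM in HepKO livers and from 0.113 to 0.220 FPKM in Flox livers, Ccnb1 had 0, 0.0149 and 0.0318 FPKM in HepKO livers and 0.0277, 0 and 0 FPKM in Flox livers, and Ccnb2 had 0.0811, 0.695 and 0.316 FPKM in HepKO livers and 0.528, 0.355 and 0.535 FPKM in Flox livers.

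With Cdk1, 3 of the 13 mitotic genes with any signal did not overlap between the genotypes, 1 higher and 2 lower in HepKO livers. Over all 10616 genes averaging between 0.0124 FPKM, the lowest of these 13, and 0.5 FPKM, 15.8% did not overlap, 9.70% higher and 6.13% lower in HepKO livers, and 13 genes are too few to read against that share. Foxm1, the transcription factor of mitotic genes, had 0.158, 0.120 and 0.269 FPKM in HepKO livers and 0.0912, 0.0956 and 0.0720 FPKM in Flox livers. Tpx2, a spindle assembly factor, had 0.0418, 0.0245 and 0.0334 FPKM in HepKO livers and 0.0965, 0.0668 and 0.0941 FPKM in Flox livers. With no filter neither passed (limma adjusted p = 0.26 and 0.13). The kinases Plk1 and Aurkb, the survivin gene Birc5, and Cdc20 and Ube2c, which act with the anaphase-promoting complex, overlapped, with no value above 0.322 FPKM. With the depth behind these values unknown, no difference among them can be bounded.

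Other genes of the same processes, from lists outside the 46, were compared with the 20.3% of all tested genes that passed. Of 18 tested G1 and CDK inhibitor genes, 3 were higher and 1 was lower in HepKO livers (22.2% called, median log2 fold change 0.04). Myc, a growth-promoting transcription factor, had 42.7, 39.1 and 33.4 FPKM in HepKO livers, against 8.09, 4.38 and 4.04 FPKM in Flox livers, 6.98-fold higher (limma adjusted p = 0.0012). Cdkn1a, which encodes the CDK inhibitor p21, had 69.8, 72.9 and 64.9 FPKM in HepKO livers, against 26.8, 19.9 and 27.4 FPKM in Flox livers, 2.80-fold higher (limma adjusted p = 0.0015). These 2, with opposite known roles in cycle entry, did not overlap between genotypes and passed in all 15 alternatives. Ccng2, an atypical cyclin linked to arrest, rose 1.94-fold (limma adjusted p = 0.035), and E2f6, a repressive E2F, fell 1.82-fold (limma adjusted p = 0.031). The Ccng2 call was lost without any 1 of HepKO replicates 1 to 3 or Flox replicates 2 and 3 (adjusted p between 0.072 and 0.11), and that of E2f6 without HepKO replicate 1 or 2 or Flox replicate 2 or 3 (between 0.086 and 0.10).

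Of 32 other replication genes tested, 1 was higher and 3 were lower in HepKO livers (12.5% called, median log2 fold change -0.13). Mcm10, which helps to activate the helicase, had 0.484, 0.531 and 0.707 FPKM in HepKO livers, against 2.44, 1.58 and 2.13 FPKM in Flox livers, 3.57-fold lower (limma adjusted p = 0.0057), and passed in all 15 alternatives. Gmnn, which encodes geminin, the inhibitor that binds CDT1, fell to 2.50 ± 0.911 FPKM in HepKO livers, against 4.88 ± 0.916 FPKM in Flox livers (SD, n = 3 each; limma adjusted p = 0.047). The ratio of Cdt1 to Gmnn FPKM was 1.49, 1.18 and 1.75 in HepKO livers and 0.296, 0.357 and 0.298 in Flox livers. It too was chosen after its values were seen (exact two-sided permutation p = 0.10, the smallest possible). Cdt1 was higher and Gmnn lower in every HepKO library than in any Flox library, so this outcome was also fixed by the parts. Gins4, a helicase subunit, fell 1.56-fold (limma adjusted p = 0.040), and Chaf1b, a histone chaperone subunit, rose 1.95-fold (limma adjusted p = 0.046). Chaf1b averaged 0.456 FPKM in Flox livers and reached the filter of 0.5 FPKM only through its HepKO values. The calls of Gins4 and Chaf1b were lost on leaving out any 1 of the 6 libraries (adjusted p between 0.056 and 0.13), and that of Gmnn without HepKO replicate 1 or 3 or any 1 Flox replicate (between 0.071 and 0.12).

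Of 47 other mitotic genes in the table, 17 reached the level for testing, and 1 was higher and 2 were lower in HepKO livers (17.6% called, median log2 fold change -0.11). Wee1, a kinase that holds CDK1 inactive, had 6.61, 7.23 and 6.50 FPKM in HepKO livers, against 4.10, 3.43 and 3.83 FPKM in Flox livers, 1.79-fold higher (limma adjusted p = 0.0056). Spc25, a kinetochore subunit, had 0.356, 0.718 and 0.841 FPKM in HepKO livers, against 2.92, 1.99 and 2.05 FPKM in Flox livers, 3.64-fold lower (limma adjusted p = 0.0083). Both passed in all 15 alternatives. Nek2, a centrosome kinase, fell to 0.202 FPKM in HepKO livers, against 0.838 FPKM in Flox livers, a 4.14-fold difference (limma adjusted p = 0.015), which was 6.57-fold without HepKO replicate 3. It averaged 0.520 FPKM over all libraries and reached the filter of 0.5 FPKM only through its Flox values. The Nek2 call was lost without HepKO replicate 2 (adjusted p = 0.056) or Flox replicate 2 (0.054).

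**Figure D5:**
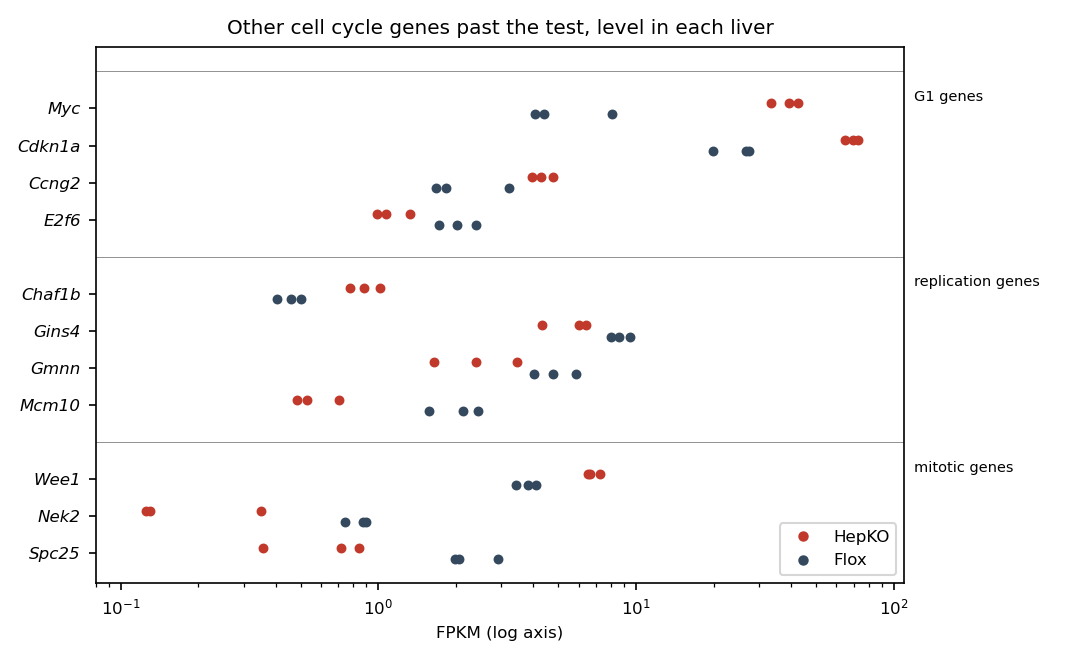
FPKM on a log axis in each library for the 11 genes outside the 46 that passed the test, by process, HepKO in red above Flox in dark blue. Myc and Cdkn1a lie highest, and Mcm10, Nek2 and Spc25 lie lower in every HepKO library than in any Flox library.

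Markers of other cells moved with the genotype beside these results. All 9 tested neutrophil markers rose, and the list summed to between 137 and 162 FPKM in HepKO livers, against 10.6 to 20.5 FPKM in Flox livers. Cxcr2, Il1r2, Mmp8, Mmp9 and Ngp averaged only 0.0462 to 0.327 FPKM in Flox livers. They reached the filter of 0.5 FPKM through their HepKO values, so the count of 9 is partly set by the filter. S100a8, S100a9, Retnlg and Csf3r averaged at least 0.901 FPKM in Flox livers. Of 12 tested monocyte and macrophage markers 5 rose and 1 fell, with sums of 191 to 232 FPKM in HepKO livers and 118 to 171 FPKM in Flox livers. Among these, Itgam and Ccr2 rose from 0.283 and 0.335 FPKM in Flox livers, and Gpnmb fell to 0.329 FPKM in HepKO livers. Each reached the filter only through the genotype where it was higher. Of 8 sinusoidal endothelial markers 4 rose and 1 fell, with sums of 40.4 to 55.9 FPKM in HepKO livers and 32.7 to 37.4 FPKM in Flox livers. Of 8 stellate cell markers 2 rose and 0 fell (25.0% called, median log2 fold change -0.09), close to the share of all genes. Their sums were 40.8 to 58.4 FPKM in HepKO livers and 26.3 to 34.5 FPKM in Flox livers. Most of each sum came from Dcn, which averaged 33.4 FPKM in HepKO and 18.6 FPKM in Flox livers. Lrat, Reln, Des, Col1a1 and Col3a1 averaged lower in HepKO livers and did not pass. Of 4 tested cholangiocyte markers, Sox9 and Spp1 rose, the second of which is also in the macrophage list, and the list summed to between 50.6 and 66.0 FPKM in HepKO livers, against 25.2 to 35.0 FPKM in Flox livers. Spp1 made up most of these sums, averaging 44.9 FPKM in HepKO and 26.9 FPKM in Flox livers. Krt19 and Epcam did not pass (limma adjusted p = 0.39 and 0.85). All 4 globin genes rose and carried nearly the whole erythroid sum, which was 551 to 975 FPKM in HepKO livers and 132 to 234 FPKM in Flox livers. Alas2, the haem synthesis enzyme of red cell precursors, averaged 5.92 FPKM in HepKO and 7.54 FPKM in Flox livers and did not pass (log2 fold change -0.31, limma adjusted p = 0.14). The erythropoietin receptor gene Epor averaged 0.0911 FPKM in HepKO and 0.214 FPKM in Flox livers, and Slc4a1, the red cell anion exchanger, was at 0.048 FPKM or less in every library, both too low for the test. T and NK cell markers were all below the level for testing, with sums of 0.821 to 1.29 FPKM in HepKO livers and 0.223 to 2.27 FPKM in Flox livers. The B cell gene Ms4a1 was listed at 0 in every library, while Ighm, the 1 tested B cell marker, rose, and the list summed to between 2.39 and 3.09 FPKM in HepKO livers, against 0.907 to 2.05 FPKM in Flox livers. Of 8 hepatocyte markers 1 fell, Cps1, and 0 rose, with sums of 38691 to 43291 FPKM in HepKO livers and 35698 to 42266 FPKM in Flox livers. Alb made up most of these sums, averaging 26922 FPKM in HepKO and 25956 FPKM in Flox livers. Values did not overlap for 4 markers lower in HepKO livers (Cps1, Ttr, Ass1 and Fah) and 1 higher (Apoa1). Over all tested genes these shares were 25.2% lower and 17.2% higher, and 8 markers are too few to read against them. The part of cell makeup in the differences of Ccnd1, Ccnd2, Rrm2, Tk1, Cdt1 and Prim1 was not tested.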

How the data were processed

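Poly(A) RNA was sequenced as paired reads from dUTP-marked libraries, per the labels' protocols. Tools named in the submitters' processing notes are HISAT2 2.0.4 with StringTie 1.3.4d, cutadapt 1.9, edgeR and DESeq2, with no roles stated. The deposited table gives FPKM per library, computed by the authors, per the file headers. The p-value and q-value per gene were deposited by the authors as well, made by a tool not given in the sources used here. Since FPKM carry no depth, count models were not used and sequencing depth per library is unknown.

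The 12712 genes averaging 0.5 FPKM or more over the 6 libraries entered limma 3.58.1 (R 4.3.3), fitted to log2(FPKM + 1) by genotype alone with the variance trend, two-sided, Benjamini-Hochberg adjusted over all of them at 0.05. This scale understates the log2 fold changes of low genes. Folds are ratios of mean FPKM. Single ratios had an exact permutation test (scipy 1.17.1). GENCODE M21 (GRCm38) holds 28396 of the table's gene identifiers, 25582 of them at the same coordinates, including 42 of the 46 members, so gene coordinates are given as GRCm38, the authors' build being not given in the sources used here. Among 237 list entries, 2 were not matched.

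The members and lists were chosen with earlier results of these data known. The text names all members, Nedd4, and the called genes of 3 further lists whose genotypes did not overlap, up to 4 in each direction. The 3 within-library ratios were chosen after their values were seen. Alternatives were a pseudocount of 0.1, other filters, 3 rescalings, no variance trend, leaving out each library and a replicate block.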

Additional observations from a re-analysis of the deposited data

How the results depend on the processing

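Depth is unknown and 17 of the 46 members lay below 0.5 FPKM, so for mitotic genes a lack of difference says little. Of 427 member values under the alternatives, 381 kept direction and side of the threshold, 32 lost it, 2 gained it and 12 changed sign. Rrm2, Tk1 and Nedd4 passed throughout. Outside the 46, besides the losses on leaving out 1 library, the calls of E2f6, Ccng2, Gins4, Gmnn and Chaf1b were lost with no filter on low values (adjusted p between 0.081 and 0.11), with no filter and a pseudocount of 0.1 (between 0.069 and 0.10) and with the replicate block (between 0.052 and 0.096), and that of Nek2 with the block (0.056). Gmnn (0.051) and Chaf1b (0.052) were lost with a pseudocount of 0.1, Gins4 (0.073) and Gmnn (0.057) after median-ratio rescaling, Gins4 (0.064) with the common sum without the 50 most abundant and mitochondrial genes, and Chaf1b (0.057) with the common sum of all FPKM. The causes of the changes were not tested.

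Over all genes, 2583 passed, 1551 with a replicate block and between 1306 and 2282 without 1 library. The common sum without the 50 most abundant and mitochondrial genes gave 1349 higher and 1232 lower. Of members, 6 passed, 3 with no filter on low values, 3 with no filter and a pseudocount of 0.1, 2 with the replicate block and 2 to 5 without 1 library. Of G1 members, 2 passed, 1 with a pseudocount of 0.1, with or without the filter, with a mean of at least 1 FPKM or with a common sum of all FPKM, 0 with no filter or the replicate block, and 0 to 1 without 1 library. Of replication members, 4 passed, 2 with no filter, with or without a pseudocount of 0.1, 2 with the replicate block and 2 to 4 without 1 library. Of mitotic members, none could be tested, and with no filter 1 passed (Cdk1) and with a pseudocount of 0.1 as well 0 (limma; 2 had an unadjusted p under 0.05).

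Sign changes all concerned members that did not pass. Ccne1 was 0.012 after median-ratio rescaling, 0.011 after the common sum without the 50 most abundant and mitochondrial genes, and between -0.073 and 0.041 without 1 library (0.041 without HepKO replicate 2). Ccne2 was 0.020 without Flox replicate 1 and otherwise down to -0.23 without 1 library. Rb1 was -0.0027 with a common sum of all FPKM, -0.044 without HepKO replicate 2 and -0.012 without Flox replicate 3, and up to 0.086 without another. Pcna was -0.098 without HepKO replicate 3 and -0.012 without Flox replicate 2, and up to 0.18 without another. Mcm6 was -0.068 without Flox replicate 1, and up to 0.38 without another. Fen1 was 0.075 without HepKO replicate 1 and 0.033 without Flox replicate 3, and down to -0.17 without another. Deviations of same-numbered libraries from their group means correlated at 0.0029, 0.0021 and -0.025 over the tested genes, so no pairing by number was seen. Whether same-numbered libraries shared a batch that touched fewer genes was not tested.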
